A study of Mus musculus with 13 samples.

Results

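The miR-30 family was followed in mouse plasma as 10 mature miRNAs, chosen by their names among the 1907 rows of the miRNA count table: mmu-miR-30a-5p, mmu-miR-30a-3p, mmu-miR-30b-5p, mmu-miR-30c-5p, mmu-miR-30c-1-3p, mmu-miR-30c-2-3p, mmu-miR-30d-5p, mmu-miR-30d-3p, mmu-miR-30e-5p and mmu-miR-30e-3p. Small RNA was sequenced from the plasma of 13 mice, 1 library per mouse. The naive wt group held 3 healthy C57BL/10J mice. The 3 other groups carried the Dmd mdx mutation on the C57BL10ScSn background and lacked dystrophin: 3 naive mdx mice, 4 vehicle mice given 0.5% methylcellulose by gavage, and 3 Givinostat mice given 37.5 mg/kg of this inhibitor of histone deacetylases by gavage in the same suspension. Dosing ran for 5 days a week over 15 weeks, and plasma was taken at the time point named T16. Naive mice were given no treatment and, like the dosed mice, took the functional tests. All mice were males bought as young adults. The strain label reads C57BL/10J for every sample, so the mdx genotype rests on the sample titles and the treatment notes. Plasma gathers RNA from many organs, so more source cells and more RNA released per cell cannot be told apart here.

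A miRNA gene is transcribed as a longer RNA that folds into a hairpin, and cutting of the hairpin leaves a duplex of a 5p and a 3p strand. One strand, the guide, is usually kept in the silencing complex while its partner, the passenger, is usually degraded. Pairing with target RNAs starts from the seed, the bases near the 5′ end of the mature strand. In the miR-30 family the 5p strands share 1 seed and are the usual guides. They are abundant in heart, kidney and skeletal muscle and are known as repressors of connective tissue growth factor and of other genes of fibrosis and of fate choice in myoblasts.

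Mature sequences are shown because relatives in this family differ by few bases and counts must be assigned to one of them. The RefSeq miRNA table of build GRCm38.p6 held 7 of the 10 members; capitals mark the seed, bases 2 to 8 from the 5′ end. Entries for mmu-miR-30b-5p, mmu-miR-30d-5p and mmu-miR-30d-3p were not in that table. The 5p strands read:
mmu-miR-30a-5p: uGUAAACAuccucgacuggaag
mmu-miR-30c-5p: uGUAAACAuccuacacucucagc
mmu-miR-30e-5p: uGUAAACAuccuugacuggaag
mmu-miR-384-5p: uGUAAACAauuccuaggcaaugu
The 3p strands fell into a pair of seed groups:
mmu-miR-30a-3p: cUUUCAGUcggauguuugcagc
mmu-miR-30e-3p: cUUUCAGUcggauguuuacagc
mmu-miR-30c-1-3p: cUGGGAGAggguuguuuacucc
mmu-miR-30c-2-3p: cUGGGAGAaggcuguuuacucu

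Among the 1679 mature names of that table, the 5p seed was held by the 3 family strands shown and by mmu-miR-384-5p, a relative from the X chromosome outside the family's name. With positions counted from the 5′ end, mmu-miR-30e-5p differed from mmu-miR-30a-5p by C13U alone. Likewise mmu-miR-30e-3p differed from mmu-miR-30a-3p by G18A alone, so a 3p read that stopped before base 18 cannot be assigned to either. Between mmu-miR-30c-1-3p and mmu-miR-30c-2-3p the differences were G9A, U12C and C22U. Short reads were mapped by the authors without mismatch and counted as the sum of all length and end variants at a canonical position, and how reads fitting several positions were shared was not given in the sources used here.

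The hairpins of miR-30a and miR-30e are shown, with both mature strands in capitals, because the 2 strands of each are set against one another below:
Mir30a: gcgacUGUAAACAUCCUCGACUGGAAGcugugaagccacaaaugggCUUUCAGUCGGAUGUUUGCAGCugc
Mir30e: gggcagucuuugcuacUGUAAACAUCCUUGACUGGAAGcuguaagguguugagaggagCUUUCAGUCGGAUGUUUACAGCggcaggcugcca

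In GRCm38.p6, Mir30a lay on the plus strand at chr1:23272269-23272339 and overlapped no other gene of GENCODE M21. Mir30c-2 lay 19361 bases downstream, at chr1:23291701-23291784 on the same strand, in an exon of the long non-coding RNA Gm27028. On chromosome 4, Mir30e at chr4:120772606-120772697 and Mir30c-1 at chr4:120769534-120769622 stood 2983 bases apart on the minus strand, both in introns of Nfyc, which encodes a subunit of the transcription factor NF-Y. Mir30b and Mir30d are neighbours on chromosome 15. Since mmu-miR-30c-5p has the same sequence from Mir30c-1 and Mir30c-2, its reads cannot be split between these genes.

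Libraries held 1167161 to 2899315 miRNA counts. The liver miRNA miR-122-5p made up between 37.6% and 64.6% of naive wt libraries, against 1.37% to 16.1% of the 10 mdx libraries. The 8 miRNAs of a skeletal muscle and heart marker list, all detected in every group, summed to 0.707% to 2.09% in naive wt and to 28.3% to 46.7% in mdx libraries. The 4 red blood cell markers summed to 0.391% to 0.809% in naive wt and 0.350% to 1.04% in mdx libraries, and the 4 myeloid markers 0.392% to 0.737% and 0.302% to 0.595%. Levels are therefore given as CPM, a miRNA's counts relative to the size of its library, after TMM scaling, which sets that size by the bulk of miRNAs, and results that depend on the scaling are named as such. On that scale the red blood cell markers summed to 5336 to 6595 CPM in naive wt and 3825 to 4070 CPM in naive mdx mice, with 3 of the 4 called lower and 1 higher (median log2 fold change -1.44). Their sums were 4099 to 9857 CPM in vehicle and 5352 to 6748 CPM in Givinostat mice, overlapping naive wt. Against naive wt, 3 of the 4 were called lower in vehicle and 2 in Givinostat mice, with 1 higher in each. The red blood cell list held miR-486a-5p, which is also made in muscle. The myeloid markers summed to 5198 to 6363 CPM in naive wt and 3716 to 4264 CPM in naive mdx mice. They summed to 3006 to 4068 CPM in vehicle and 3448 to 5096 CPM in Givinostat mice. Against naive wt mice, 1 of 4 was called lower in naive mdx, 3 of 4 in vehicle and 1 of 4 in Givinostat mice. The part of these sources in the miR-30 levels was not tested.

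The members together made up 2.42% to 3.87% of the counts of naive wt libraries. They took 8.07% to 10.3% in naive mdx, 7.13% to 10.2% in vehicle and 7.64% to 8.30% in Givinostat mice. With miR-122-5p left out of the total, the share was 6.73% ± 0.49 (SD, n = 3) in naive wt, 9.62% ± 0.75 (n = 3) in naive mdx, 9.49% ± 1.14 (n = 4) in vehicle and 8.41% ± 0.23 (n = 3) in Givinostat mice. All 10 mdx values stayed above the highest naive wt value on either basis.

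The order of levels within the family ran over several powers of 10. Among member counts in naive wt mice, mmu-miR-30d-5p made up 51.2% ± 3.26, mmu-miR-30c-5p 24.1% ± 3.01, mmu-miR-30a-5p 14.6% ± 1.12 and mmu-miR-30e-5p 5.44% ± 0.85 (SD, n = 3). The 5p strands together held 96.5% ± 0.58 of member counts in naive wt, 96.1% ± 0.90 in naive mdx, 95.5% ± 0.93 in vehicle and 95.1% ± 0.52 in Givinostat mice. The most abundant 3p strand was mmu-miR-30a-3p, followed by mmu-miR-30e-3p. The other 3p strands lay near the detection limit: mmu-miR-30c-2-3p had 15 to 38 counts a library, mmu-miR-30d-3p 2 to 17 and mmu-miR-30c-1-3p 0 to 8. The limit set by 0 counts in a library (3 counts, for counting error only) was 1.03 to 2.57 CPM, a range into which single values of mmu-miR-30d-3p fell. Of related rows outside the rule, mmu-miR-30b-3p had 7 to 37 counts a library, mmu-miR-384-5p 0 to 13, and mmu-miR-30f none in any library.

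Some neighbours in this order changed places between groups. In each mouse mmu-miR-30d-5p outnumbered mmu-miR-30c-5p, and mmu-miR-30b-5p outnumbered mmu-miR-30e-3p. In contrast, mmu-miR-30c-5p exceeded mmu-miR-30a-5p in all naive wt, vehicle and Givinostat mice, but in only 1 of the 3 naive mdx mice. The passenger mmu-miR-30a-3p was below mmu-miR-30e-5p in 3 of 3 naive wt and 3 of 3 naive mdx mice, and above it in 4 of 4 vehicle and 3 of 3 Givinostat mice. The group ranges of these last 2 strands overlapped in naive mdx, vehicle and Givinostat mice. Neither was called in vehicle against naive mdx mice, with log2 fold changes of 0.25 for mmu-miR-30a-3p and -0.31 for mmu-miR-30e-5p. Only the pairs named here were compared in this way, and changes of order were not tested.

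**Figure D1:**
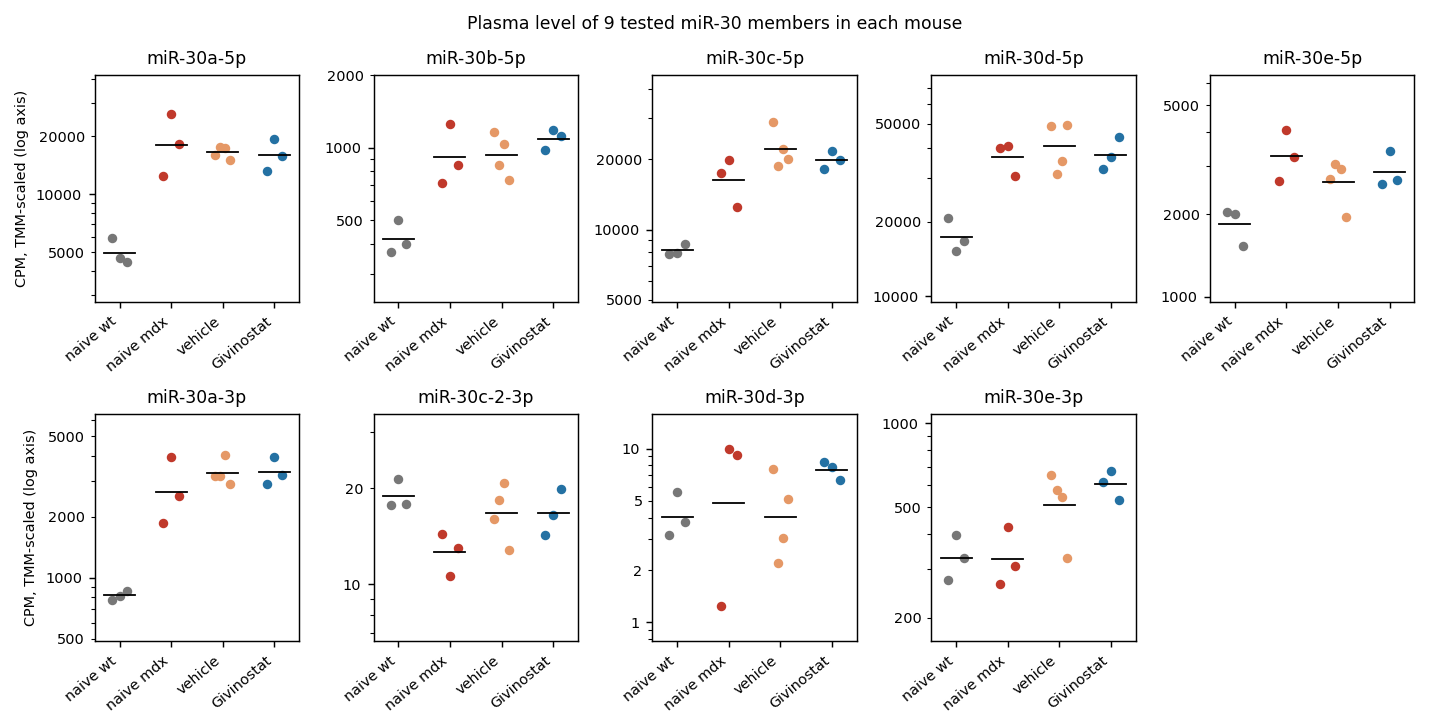
Level of each of the 9 members that passed the count filter, in TMM-scaled CPM on a log axis; each point is 1 mouse, and each line is the geometric mean of a group (3, 3, 4 and 3 mice). All 5 5p strands and mmu-miR-30a-3p lie higher in naive mdx than in naive wt mice without overlap, while the values of mmu-miR-30e-3p overlap between both naive groups.

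The first comparison asked what the lack of dystrophin went along with in untreated animals. In plasma of naive mdx mice, all 5 5p strands were higher than in naive wt mice, from 1.78-fold for mmu-miR-30e-5p to 3.79-fold for mmu-miR-30a-5p. Of the 3p strands, mmu-miR-30a-3p alone passed the test, at 3.39-fold. Both strands of miR-30a therefore rose, whereas of the miR-30e strands the 5p strand passed the test and the 3p strand did not. In all, 6 of the 9 members tested were higher and 0 lower at an adjusted p under 0.05 (edgeR quasi-likelihood test), against 26.9% higher and 16.6% lower over the whole set of 368. The tenth member, mmu-miR-30c-1-3p, was too low to be tested. The median log2 fold change was 1.02 over the 9 members and 0.04 over all miRNAs tested.

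The level of mmu-miR-30a-5p was 5929, 4666 and 4415 CPM in the naive wt mice and 12383, 26222 and 18233 CPM in the naive mdx mice. The lowest mdx mouse stood above the highest wt mouse by a wide margin, and the mdx mice differed among themselves more than the wt mice did. The log2 fold change was 1.92 (SE 0.27, adjusted p = 4.25e-05). Its passenger mmu-miR-30a-3p had 779, 816 and 863 CPM in naive wt and 1867, 3945 and 2529 CPM in naive mdx mice, with the mdx mice in the same order as for the 5p strand. Its log2 fold change was 1.76 (SE 0.27, adjusted p = 7.44e-05).

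The most abundant member, mmu-miR-30d-5p, had 20789, 15181 and 16784 CPM in naive wt and 40004, 40679 and 30570 CPM in naive mdx mice. The groups did not overlap, and the log2 fold change was 1.08 (SE 0.26, adjusted p = 0.00301). The level of mmu-miR-30c-5p was 7855, 7947 and 8694 CPM in naive wt and 17488, 19817 and 12456 CPM in naive mdx mice. Its log2 fold change was 1.02 (SE 0.24, adjusted p = 0.00293). For mmu-miR-30b-5p, the least abundant 5p strand, the values were 368, 500.04 and 399.6 CPM in naive wt and 715, 1257 and 849 CPM in naive mdx mice. The groups did not overlap either, and the log2 fold change was 1.15 (SE 0.26, adjusted p = 0.002).

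The smallest 5p difference was that of mmu-miR-30e-5p, with 2037, 1998 and 1533 CPM in naive wt and 2650, 4036 and 3222 CPM in naive mdx mice. The groups did not overlap, and the log2 fold change was 0.83 (SE 0.24, adjusted p = 0.0119). This call was lost without naive wt mouse 95 (adjusted p = 0.0528). The passenger mmu-miR-30e-3p had 273, 395 and 327 CPM in naive wt and 264, 425 and 306 CPM in naive mdx mice, fully intermingled. Its log2 fold change was -0.00 (SE 0.28, 95% interval -0.58 to 0.58, adjusted p = 0.995).

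The remaining 3p strands did not pass the test. The level of mmu-miR-30c-2-3p was 17.7, 21.4 and 17.9 CPM in naive wt and 14.4, 10.6 and 13.03 CPM in naive mdx mice, so that every mdx mouse lay below every wt mouse. The log2 fold change was -0.58 (SE 0.31, adjusted p = 0.131). For mmu-miR-30d-3p the values overlapped and the log2 fold change was 0.68 (SE 0.56, adjusted p = 0.320). Groups that did not overlap were found for 6 members in the higher and 1 in the lower direction, against 29.9% and 27.7% of all miRNAs tested. Outside the rule, mmu-miR-30b-3p had 17.1, 15.2 and 17.4 CPM in naive wt and 13.1, 9.19 and 9.23 CPM in naive mdx mice (log2 fold change -0.65, SE 0.34, adjusted p = 0.125).

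With RLE factors, upper-quartile factors or plain library totals in place of TMM, 5 or 6 members were still higher and 0 lower. With library totals from which miR-122-5p was left out, 4 members passed the test: mmu-miR-30a-5p and mmu-miR-30a-3p were higher, by 1.18 and 1.01 on the log2 scale, and mmu-miR-30c-2-3p and mmu-miR-30e-3p were lower, with log2 fold changes of -1.25 and -0.73. The other 5p strands then had log2 fold changes of 0.12 to 0.42 and did not pass. That scaling moved all miRNAs tested by a median of -0.68 on the log2 scale relative to TMM, and turned 99 higher and 61 lower miRNAs into 58 and 153. Upper-quartile factors shifted all by -0.22, with 82 higher and 96 lower, and plain library totals by 0.37, with 118 and 23. Leaving the muscle, heart and hepatocyte markers out of the totals shifted all by -0.12 and kept 6 members higher. Under all 6 scalings both strands of miR-30a were higher and passed the test, which no other member did.

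**Figure D2:**
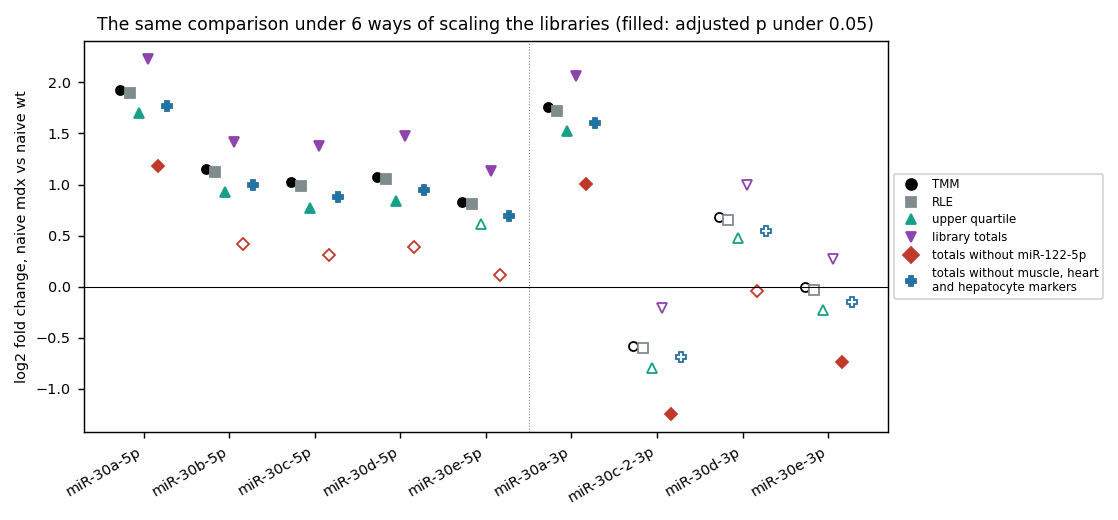
The log2 fold change of the 9 tested members in naive mdx against naive wt mice, under 6 ways of scaling the libraries (5p strands left of the dotted line, 3p strands right); filled symbols had an adjusted p under 0.05 in edgeR. Both strands of miR-30a are filled throughout, from 1.01 to 2.23, while mmu-miR-30e-3p lies on both sides of 0.

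A ratio of 2 miRNAs counted in the same library does not depend on the scaling. The log2 ratio of 5p to 3p counts was formed in each mouse for the 5 family hairpins with both strands above the filter, with 0.5 counts added to each strand, and was tested with limma together with all 109 hairpins of that kind. The partner of mmu-miR-30b-5p here is mmu-miR-30b-3p, and the partner of mmu-miR-30c-2-3p is the 5p strand shared by both miR-30c genes. In naive mdx against naive wt mice 3 of the 5 ratios were called, all higher. Of the 109 hairpins, 21.1% (23) were called in either direction, and 7 of them were higher. The median shift over the 109 hairpins was -0.27 on the log2 scale. For strand ratios, the share of hairpins whose groups did not overlap was not counted in any comparison.

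The miR-30a ratio was 7.61, 5.72 and 5.11 reads of 5p per read of 3p in naive wt and 6.63, 6.65 and 7.21 in naive mdx mice. The naive mdx values lay inside the naive wt range, and the log2 ratio differed by 0.17 (SE 0.17, 95% interval -0.19 to 0.53, adjusted p = 0.513). The miR-30e ratio was 7.44, 5.05 and 4.69 in naive wt and 10.05, 9.48 and 10.5 in naive mdx mice. The naive mdx mice were the highest of all 13 mice, and the log2 ratio was higher by 0.84 (SE 0.27, adjusted p = 0.0314). This call was lost without naive wt mouse 89 (adjusted p = 0.130), naive wt mouse 95 (0.131), naive mdx mouse 37 (0.0644) or naive mdx mouse 39 (0.0898), with differences from 0.71 to 0.88.

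The remaining hairpins rested on few 3p reads. The miR-30b ratio was 21.2, 32.3 and 22.7 in naive wt and 53.2, 131.8 and 89.3 in naive mdx mice, with no overlap. Its log2 ratio was higher by 1.78 (SE 0.40, adjusted p = 0.00277), on 7 to 37 counts of 3p a library. The miR-30c-2 ratio was 435, 366 and 480.3 in naive wt and 1189, 1809 and 937 in naive mdx mice. Its log2 ratio was higher by 1.57 (SE 0.34, adjusted p = 0.00239). The miR-30d log2 ratio was higher by 0.78 without passing the test (SE 0.59, adjusted p = 0.379), and it came out at -0.16 without naive mdx mouse 36, in which 2 reads of mmu-miR-30d-3p were counted.

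**Figure D3:**
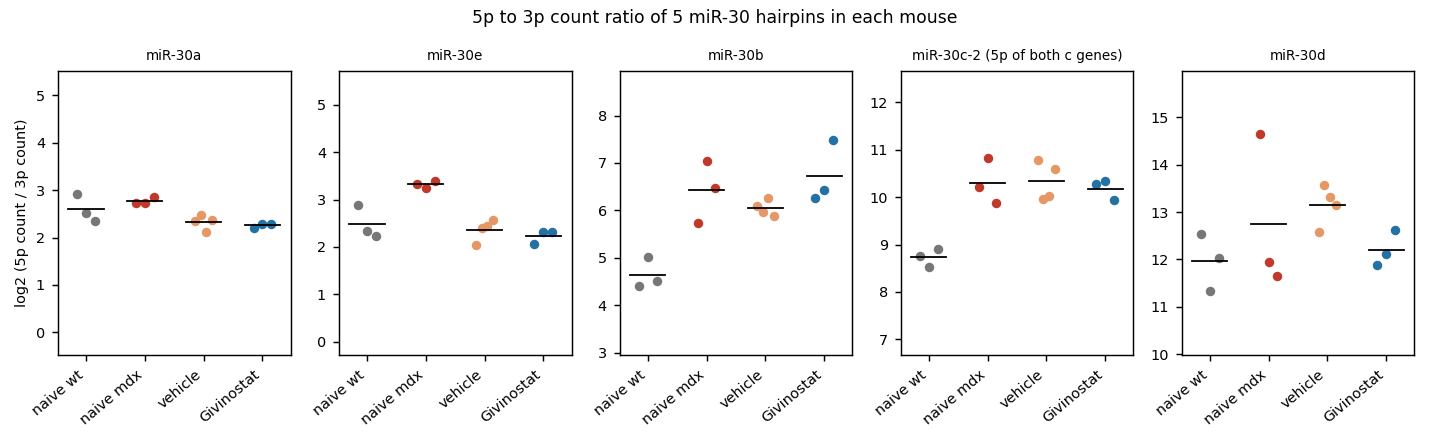
The log2 ratio of 5p to 3p counts of 5 miR-30 hairpins; each point is 1 mouse, each line a group mean, and every panel spans 6 log2 units. The naive mdx mice stand above all other mice for miR-30e, at 3.24 to 3.397, and all mdx mice stand above naive wt for miR-30b and miR-30c-2, while miR-30a varies within 2.12 to 2.93.

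The second comparison asked whether Givinostat at 37.5 mg/kg went along with other miR-30 levels than its vehicle. Of the 9 members tested, 0 were called and 0 had an unadjusted p under 0.05 in edgeR, where 0.272% of the 368 miRNAs were called higher and 0% lower, and 25 had an unadjusted p under 0.05. DESeq2 called 0 members as well. The level of mmu-miR-30a-5p was 16070, 17599.5, 17435 and 15099.6 CPM in vehicle and 13289, 19349 and 15789 CPM in Givinostat mice. The vehicle values fell inside the Givinostat range, and the log2 fold change was -0.04 (95% interval -0.56 to 0.49). Its partner mmu-miR-30a-3p had 3163, 3158, 4024 and 2901 CPM in vehicle and 2884, 3964 and 3227 CPM in Givinostat mice (log2 fold change 0.02, 95% interval -0.49 to 0.53).

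The most abundant strand, mmu-miR-30d-5p, had 49159, 31329, 35399 and 49449.7 CPM in vehicle and 32634, 36579.9 and 44133 CPM in Givinostat mice, all 3 Givinostat values lying inside the vehicle range. For mmu-miR-30c-5p the values were 28900, 18699, 22153 and 20185 CPM in vehicle and 18108.5, 21727 and 19826 CPM in Givinostat mice. Vehicle mouse 40 was the highest of the 13 mice for this strand, and the other dosed mice were intermingled. The level of mmu-miR-30b-5p was 1167, 849.7, 1034 and 735 CPM in vehicle and 977, 1185 and 1114 CPM in Givinostat mice, again with overlap.

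For miR-30e, the 5p strand had 2684, 3055, 2933 and 1948 CPM in vehicle and 2571, 3392 and 2652 CPM in Givinostat mice. The 3p strand had 651, 575, 541 and 328 CPM in vehicle and 615, 677 and 529 CPM in Givinostat mice. Vehicle mouse 43 was the lowest dosed mouse for both miR-30e strands and for mmu-miR-30b-5p, while it was the highest of all mice for mmu-miR-30d-5p. The low strand mmu-miR-30c-2-3p had 16.05, 18.4, 20.8 and 12.8 CPM in vehicle and 14.3, 16.4 and 19.9 CPM in Givinostat mice, both overlapping the naive wt values.

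For the other 5p strands the log2 fold changes in Givinostat against vehicle mice were -0.18 for mmu-miR-30c-5p (95% interval -0.65 to 0.30), -0.13 for mmu-miR-30d-5p (-0.63 to 0.37), 0.11 for mmu-miR-30e-5p (-0.37 to 0.59) and 0.21 for mmu-miR-30b-5p (-0.30 to 0.71). For the 3p strands they were 0.21 for mmu-miR-30e-3p (-0.33 to 0.75), -0.01 for mmu-miR-30c-2-3p (-0.63 to 0.60) and 0.73 for mmu-miR-30d-3p (-0.40 to 1.87). The intervals of the 5 5p strands all end short of 1 log2 unit in either direction. That of mmu-miR-30d-3p, on 3 to 14 counts a library in these 2 groups, does not. None of the 5 hairpin ratios was called (smallest adjusted p = 0.926), as none of the 109 hairpins was (0%), with 2 at an unadjusted p under 0.05. The miR-30e ratio was 4.12, 5.31, 5.41 and 5.93 in vehicle and 4.18, 5.01 and 5.01 in Givinostat mice.

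Vehicle mice were then set against naive mdx mice, which differ by the gavage and its suspension. Of the 9 members, 0 were called by edgeR or DESeq2 (all miRNAs: 0% higher and 0% lower, 17 with an unadjusted p under 0.05). The lowest unadjusted p was that of mmu-miR-30e-3p (0.0220, adjusted p = 0.801), with 651, 575, 541 and 328 CPM in vehicle against 264, 425 and 306 CPM in naive mdx mice. One vehicle mouse, number 43, lay among the naive mdx values and the others above them, and the log2 fold change was 0.66 (SE 0.26). The partner mmu-miR-30e-5p had a log2 fold change of -0.31 (SE 0.23). Each vehicle mouse had a lower miR-30e ratio than each naive mdx mouse, with a log2 difference of -0.96 (SE 0.25). Over the 109 hairpins this did not pass (limma adjusted p = 0.150, 0% called). The miR-30a ratio differed in the same direction, by -0.44 (SE 0.16, adjusted p = 0.376), also without overlap. How many of the 109 hairpins had ratios without overlap between these groups was not counted. The separation of the miR-30e and miR-30a ratios therefore has no share to be read against.

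Both dosed groups were also compared with the same 3 naive wt mice, so that these comparisons share their controls with the first. In vehicle against naive wt mice 6 of 9 members were higher (24.2% of all miRNAs tested), and in Givinostat against naive wt mice 6 of 9 (22.6%). In each case these were mmu-miR-30a-5p, mmu-miR-30b-5p, mmu-miR-30c-5p, mmu-miR-30d-5p, mmu-miR-30a-3p and mmu-miR-30e-3p. The largest log2 fold changes were those of mmu-miR-30a-3p, 2.02 in vehicle (SE 0.26, adjusted p = 1.33e-05) and 2.04 in Givinostat mice (SE 0.27, adjusted p = 2.27e-05), followed by 1.73 (adjusted p = 7.61e-05) and 1.69 (adjusted p = 0.000192) for mmu-miR-30a-5p. For mmu-miR-30c-5p they were 1.46 (adjusted p = 0.000108) and 1.28 (adjusted p = 0.000763), next to 1.02 in naive mdx mice. For mmu-miR-30d-5p they were 1.23 and 1.10, and for mmu-miR-30b-5p 1.16 and 1.37. As in the naive comparison, library totals without miR-122-5p left fewer of these calls, 3 members higher and 1 lower in vehicle and 2 higher and 1 lower in Givinostat mice. Both miR-30a strands stayed higher, with log2 fold changes of 0.87 and 1.14 in vehicle and 0.75 and 1.09 in Givinostat mice for the 5p and the 3p strand, and mmu-miR-30c-5p did so in vehicle mice alone (0.58, against 0.35 in Givinostat mice). The calls of mmu-miR-30b-5p (0.28 and 0.43) and mmu-miR-30d-5p (0.37 and 0.17) were lost in both, and mmu-miR-30c-2-3p was called lower in both (-1.03 and -1.11). That scaling moved all miRNAs tested by a median of -0.86 in vehicle and -0.92 in Givinostat mice, and turned 89 higher and 85 lower miRNAs into 51 and 189, and 83 and 43 into 41 and 200. On the TMM scale, the levels of mmu-miR-30a-3p in all 7 dosed mice were more than 3 times that of the highest naive wt mouse. This depends on the scaling: by plain library totals, Givinostat mouse 35 had 2823 CPM against 1001 CPM in naive wt mouse 89.

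Which miR-30e strand passed the test differed from the naive comparison. The 3p strand had log2 fold changes of 0.66 in vehicle (SE 0.26, adjusted p = 0.0473) and 0.87 in Givinostat mice (SE 0.28, adjusted p = 0.0222). The 5p strand had 0.52 (SE 0.23, adjusted p = 0.0711) and 0.63 (SE 0.24, adjusted p = 0.0568) and was not called. The 3p calls were lost without naive wt mouse 86 or 95 in both comparisons (adjusted p from 0.0629 to 0.139), without vehicle mouse 42 (0.0880), and without Givinostat mouse 31 (0.0522) or 34 (0.0759). In vehicle mice the 5p strand passed beside the 3p strand without mouse 40, 41 or 43 (adjusted p from 0.0129 to 0.0398), and DESeq2 called both strands in both comparisons. In edgeR the 5p strand also passed with RLE factors (adjusted p = 0.0439 in vehicle and 0.0330 in Givinostat mice). It did so with a filter at a mean of 10 CPM (0.0387 and 0.0263), and in Givinostat mice with the 2 groups fitted alone (0.00946). The 3p calls were also lost with upper-quartile factors or plain library totals (adjusted p from 0.0502 to 0.154). In vehicle mice the 3p call was lost as well with no filter (0.0996), with the 2 groups fitted alone (0.0634) and with totals without the muscle, heart and hepatocyte markers (0.0832), and with totals without miR-122-5p the log2 fold changes were -0.22 in vehicle and -0.0524 in Givinostat mice.

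The hairpin ratios of miR-30b and miR-30c-2 were higher than in naive wt mice in both dosed groups. In either direction, 17.4% of the 109 hairpins were called in vehicle and 16.5% in Givinostat mice, with 8 called higher in each comparison. For miR-30b the differences were 1.41 (SE 0.37, adjusted p = 0.0131) and 2.09 (SE 0.40, adjusted p = 0.00236), and for miR-30c-2 they were 1.61 (SE 0.32, adjusted p = 0.00194) and 1.45 (SE 0.34, adjusted p = 0.00808). Each of the 10 mdx mice had at least 937 reads of mmu-miR-30c-5p per read of mmu-miR-30c-2-3p, against at most 480.3 in the naive wt mice. The miR-30e and miR-30a ratios did not pass the test, at -0.12 (SE 0.25) and -0.27 (SE 0.16) in vehicle and -0.25 (SE 0.27) and -0.34 (SE 0.17) in Givinostat mice.

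**Figure D4:**
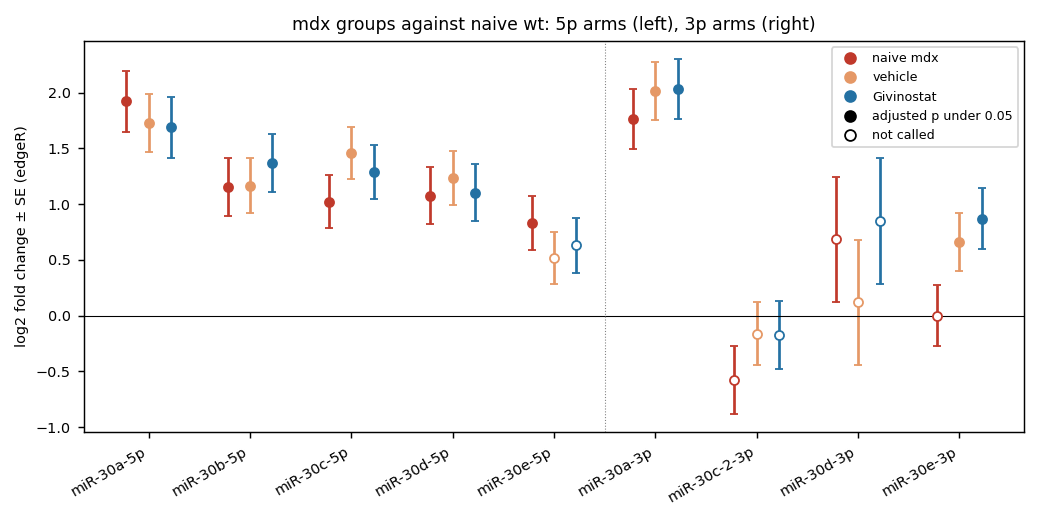
The log2 fold change with its standard error (edgeR) of the 9 tested members in each mdx group against the same 3 naive wt mice; filled points had an adjusted p under 0.05. Both miR-30a strands stand highest in every group, from 1.69 to 2.04, and for miR-30e the filled point is the 5p strand in naive mdx and the 3p strand in the dosed groups.

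Hairpins that lie next to each other can be cut from 1 transcript. The 5p counts of neighbouring genes were therefore compared within each mouse, all 10 mdx against the 3 naive wt mice. Two-sided exact permutation tests were run over 3 pairs. Reads of mmu-miR-30c-5p cannot be split between Mir30c-1 and Mir30c-2, so ratios to this strand do not isolate the neighbouring gene. The log2 ratio of mmu-miR-30a-5p to mmu-miR-30c-5p was -0.41, -0.77 and -0.98 in naive wt mice and -0.50, 0.40 and 0.55 in naive mdx mice. It ran from -0.85 to -0.09 in vehicle and from -0.45 to -0.17 in Givinostat mice, so that naive mdx mice 37 and 39 stood above all others. The mean was -0.22 ± 0.42 (SD, n = 10) in mdx and -0.72 ± 0.29 (n = 3) in naive wt mice (exact permutation p = 0.0734, adjusted p = 0.110). The log2 ratio of mmu-miR-30e-5p to mmu-miR-30c-5p had a mean of -2.77 ± 0.44 in mdx and -2.15 ± 0.31 in naive wt mice (exact permutation p = 0.0420, adjusted p = 0.110). It was below the naive wt range in all 7 dosed mice, whereas the naive mdx mice had -2.72, -2.30 and -1.95 and overlapped the naive wt mice. By group its means were -2.32 ± 0.39 in naive mdx, -3.08 ± 0.39 in vehicle and -2.80 ± 0.11 in Givinostat mice, so the pooled difference lay mainly in the dosed groups. The log2 ratio of mmu-miR-30d-5p to mmu-miR-30b-5p had means of 5.31 ± 0.36 and 5.38 ± 0.45 (exact permutation p = 0.808). None of the 3 pairs passed after adjustment, and the smallest p that 286 splits of the mice allow is 0.0035.

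Outside the family, the miRNAs whose levels over the 13 mice were nearest to mmu-miR-30a-5p were sought among the 137 tested ones with a mean of at least 100 CPM. Nearness was the root mean square difference of log2 CPM after each miRNA was centred on its own mean. These were mmu-miR-24-2-5p (0.19), mmu-miR-361-5p (0.33) and mmu-miR-24-3p (0.34), where the median over that pool was 1.01. Its own partner mmu-miR-30a-3p stood at 0.25 and mmu-miR-30e-3p at 0.71. For mmu-miR-30d-5p the nearest were mmu-miR-361-3p (0.22), mmu-miR-1964-3p (0.22) and mmu-let-7d-3p (0.26), with a pool median of 0.81. Within the family mmu-miR-30c-5p was nearest to it (0.23). These distances include the difference between the groups and the shared scaling of each library.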

How the data were processed

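Plasma RNA was extracted with a miRNeasy serum and plasma kit and made into NEBNext small RNA libraries, which carry no molecular identifiers. The authors deposited raw counts per mature miRNA, each the sum of its isomiRs after mapping to GRCm38 (mm10) and annotation with miRBase. The study's text names Trimmomatic and the submitters' processing notes name Bowtie 1.0.0, cutadapt 1.4.2 and bcl2fastq 1.37.0. A second deposited table of normalized values was not used. All 13 columns matched a mouse by name (0 unmatched), and groups came from the sample titles. No 2 libraries of a group were copies (15 pairs, chi-square per degree of freedom at least 104.5).

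Counts were filtered with filterByExpr (minimum count of 10; 368 of 1203 detected miRNAs kept), scaled by TMM and fitted with edgeR 4.0.16 (glmQLFit and glmQLFTest, R 4.3.3), 1 mean per group over 13 libraries. Strand ratios were fitted with limma 3.58.1, and DESeq2 1.42.0 was an alternative. P-values were adjusted by Benjamini-Hochberg over all miRNAs or hairpins tested, and intervals cover 95%. Members and lists were chosen with earlier results of these data known. All members of the rule were named, with other miR-30 rows, a seed relative and the 3 nearest profiles of mmu-miR-30a-5p and mmu-miR-30d-5p; marker lists were given as summed levels. Adapter ligation depends on sequence, so levels of different miRNAs are less comparable than levels of 1 miRNA between mice. Alternatives were other scalings, filters and tools, and leaving out each library.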

Additional observations from a re-analysis of the deposited data

How the results depend on the processing

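Library totals without miR-122-5p changed the calls against naive wt most. Of 6 members higher and 0 lower in each comparison they left 2 higher and 2 lower in naive mdx, 3 higher and 1 lower in vehicle, and 2 higher and 1 lower (3 called) in Givinostat mice. Under the other alternatives 5 to 7 members were called in these comparisons. For naive mdx against naive wt mice, of 134 single log2 fold changes 119 kept their direction and call, 7 lost the call, 2 gained it and 6 changed sign. The call of mmu-miR-30e-5p there was lost with upper-quartile factors (adjusted p = 0.0581) and with the 2 groups fitted alone (0.0626). The 0 calls in Givinostat against vehicle and in vehicle against naive mdx mice held under all 16 alternatives each. One scaling, library totals without the muscle, heart and hepatocyte markers, was chosen after seeing the data.

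The following log2 values changed sign, most of them near 0, and the cause was not tested. Upper-quartile factors gave 0.0497 for mmu-miR-30a-5p and 0.0798 for mmu-miR-30c-2-3p in Givinostat against vehicle mice, and -0.0906 for mmu-miR-30d-3p in vehicle against naive wt mice. Library totals gave 0.27 for mmu-miR-30e-3p in naive mdx against naive wt mice, and -0.16 for mmu-miR-30b-5p and -0.0387 for mmu-miR-30d-5p in vehicle against naive mdx mice. Totals without miR-122-5p gave -0.0436 for mmu-miR-30d-3p in naive mdx against naive wt mice, -0.0452 for mmu-miR-30a-3p in Givinostat against vehicle mice, and -0.13 for mmu-miR-30b-5p and -0.013 for mmu-miR-30d-5p in vehicle against naive mdx mice. Against naive wt they gave -0.74 for mmu-miR-30d-3p, -0.35 for mmu-miR-30e-5p and -0.22 for mmu-miR-30e-3p in vehicle, and -0.0528, -0.30 and -0.0524 in Givinostat mice. In Givinostat against vehicle mice, no filter gave 0.00473 for mmu-miR-30c-2-3p, and the 2 groups alone gave -0.0201 for mmu-miR-30a-3p. The ratio of mmu-miR-30d-5p to mmu-miR-30b-5p differed by 0.0167 without the Givinostat mice.

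Leaving out 1 library gave ranges through 0 in naive mdx against naive wt mice for mmu-miR-30e-3p (-0.21 to 0.16) and the miR-30d strand ratio (-0.16 to 1.33), and in vehicle against naive wt mice for mmu-miR-30c-2-3p (-0.28 to 0.095) and mmu-miR-30d-3p (-0.0537 to 0.50). It did so in vehicle against naive mdx mice for mmu-miR-30a-5p (-0.42 to 0.13) and mmu-miR-30b-5p (-0.14 to 0.30), and in Givinostat against vehicle mice for mmu-miR-30a-5p (-0.19 to 0.059), mmu-miR-30a-3p (-0.13 to 0.13), mmu-miR-30c-2-3p (-0.21 to 0.10) and mmu-miR-30e-5p (-0.0348 to 0.16). The ratio of mmu-miR-30d-5p to mmu-miR-30b-5p ranged from -0.30 to 0.15. No paired analysis was possible because the groups share no animal numbers. The low 3p strands limit the precision of the miR-30b, miR-30c-2 and miR-30d ratios.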
